A study of Drosophila melanogaster with 9 samples.

Results

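The transcriptome of the normal adult testis of *Drosophila melanogaster* is described here from the 3 libraries titled Control, out of 9 libraries in a study that also sequenced testes with germline knockdown of *U2af38* or *SRPK*. The libraries were chosen by that title alone, and no knockdown library enters any value. Each library was made from total RNA of testes pooled from males 1 to 3 days old, depleted of ribosomal RNA and sequenced on strand-specific paired reads in 2 lanes, which were summed. The study's methods describe its control flies as either the parental *bam-GAL4* driver stock, in which the *bam* promoter drives the yeast activator GAL4 in late spermatogonia and spermatocytes, or siblings from the same cross, and which of these supplied these libraries was not given in the sources used here. No hairpin line is named for them. The labels call the 3 libraries biological replicates, and SDs below are over them (n = 3).

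The fly testis is a coiled tube in which all stages of sperm production are present at once. Germline stem cells at the tip, held by somatic hub cells and enclosed by somatic cyst cells, give rise to spermatogonia, which divide, become spermatocytes, and switch on a large testis-specific programme through testis forms of general transcription factors (tTAFs), the testis meiotic arrest complex (tMAC) and testis bromodomain proteins (tBRDs). Most transcription ends before the meiotic divisions, so that much of the mRNA that builds the sperm tail and repacks the sperm nucleus is made early and stored. The Y chromosome carries fertility genes expressed in spermatocytes, some with introns of megabases of satellite DNA. The tissue is mixed, so a low level of a marker can reflect few cells of a type or little RNA in each, and these cannot be told apart in pooled tissue.

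Levels are given as TPM, a length-scaled abundance computed from the deposited fragment counts by dividing each gene by its exonic length and scaling each library to a sum of 1000000. Counting used exons, so unspliced and spliced RNA of a gene are pooled except over introns. The pair of 30-base target sites that the study designed for the Y-linked dynein gene *kl-3* shows what the counts do and do not see, and is printed for that reason. Capitals mark the end of exon 1, which both sites share and which is counted, and lower case marks what follows it, either intron 1, which is not counted, or exon 2, which is.
*kl-3* exon 1 to intron 1: TCGAAACTTTTAAACgtaagttactttgtc
*kl-3* exon 1 to exon 2: TCGAAACTTTTAAACcgctgggctgaaatc
The first site exists only in the unspliced transcript of the Y chromosome and the second only after splicing, and a fragment over either adds to the same count of *kl-3*, which was 39, 35.3 and 38.3 TPM in control replicates 1, 2 and 3.

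The 3 libraries held 23099306, 20908187 and 30002574 fragments assigned to 17575 genes (replicates 1, 2 and 3). They ranked genes almost alike: over 9845 protein-coding genes at 1 TPM or more in every library, Spearman's rho between libraries was 0.994 to 0.996, a description across genes, which are not independent replicates. Replicate 2 stood apart in 3 ways, which bear on results below. Fragments on 28S and 18S ribosomal RNA pseudogenes made up 1.08% of it against 0.0196% and 0.0194% of replicates 1 and 3. Accessory gland transcripts were nearly missing from it, with a summed level over 16 listed genes of 18.3 TPM against 770.4 and 618 TPM. Genes with 400 to 500 exonic bases were higher in it, by a median of 0.19 on the log2 scale over replicate 1, where genes of 2000 bases or more stood at -0.05. The part of library preparation or dissection in these differences was not tested.

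The most abundant mRNAs of the testis were mainly short transcripts of genes that carry no name beyond a CG number. *CG31740* came first with 8139.5, 7942 and 8217 TPM in replicates 1, 2 and 3. Ocnus (*ocn*), a sperm protein gene of the janus cluster, followed with 7345, 7983 and 7522 TPM. Their library ranges overlapped, while the third gene, *CG12699*, lay below both in every library at 5525, 5648 and 6374 TPM. *CG33340* (5838 ± 293 TPM) and *CG8701* (5765 ± 179 TPM) could not be ordered against *CG12699* or each other. The next step down was *S-Lap1*, a leucyl aminopeptidase of sperm mitochondria, at 4916, 4919.8 and 5443 TPM. Of the 19 neighbouring pairs among the 20 highest protein-coding genes, 2 had library ranges that did not overlap, after *ocn* and after *CG8701*. The other 17 were not ordered by that rule. In some of these the same gene still led within every library, as *CG10252* did over *CG4836*. The rest of the 20 ran from *CG10252* (4966 ± 165 TPM) through *CG4836*, *loopin-1*, *CG12860*, *CG12861*, *S-Lap7*, *CG2127*, *CG34168*, *CG17376* and *CG9920* to *CG15219* (3403 ± 89.8 TPM). *CG31820*, *Mst84Dd* and *CG46059* also belong there, but their order rests on replicate 2: *Mst84Dd* measured 2682, 5423 and 3927 TPM, *CG46059* 2450.2, 5021 and 3572 TPM and *CG31820* 3646, 6041 and 3632 TPM, each highest in that library and each under 600 bases long.

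**Figure D1:**
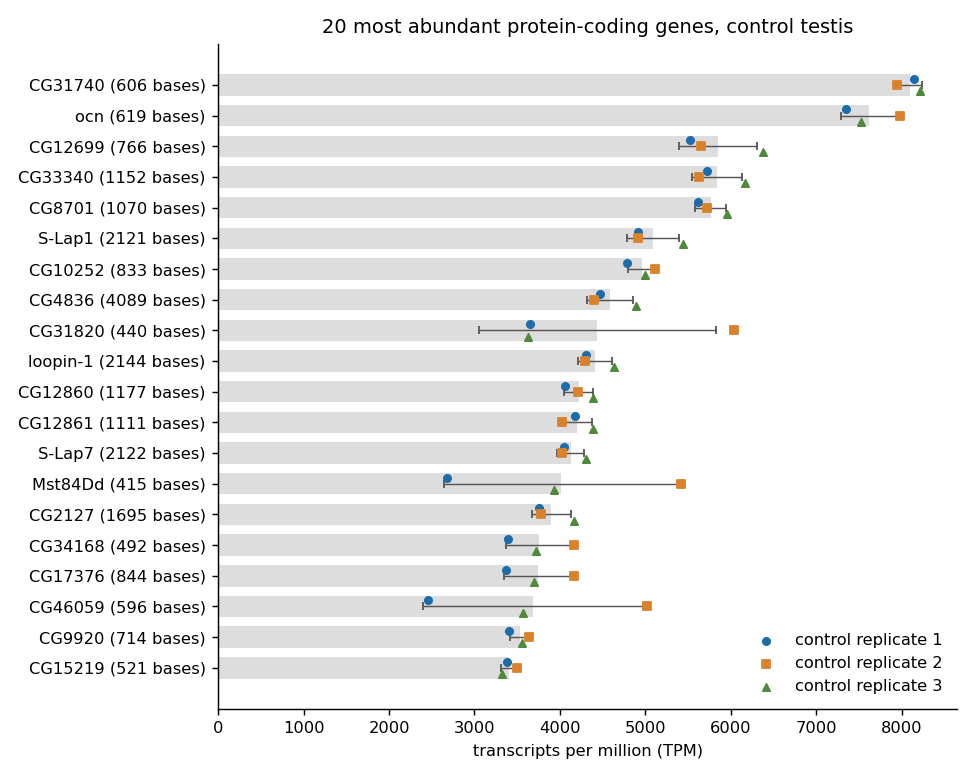
Levels of the 20 most abundant protein-coding genes in control testis, in TPM on a linear axis from 0, with gene lengths in exonic bases. Bars are means of 3 libraries, error bars the SD and symbols single libraries. *CG31740* and *ocn* lie at or above 7345 TPM in every library, and the widest error bars belong to *CG31820*, *Mst84Dd* and *CG46059*.

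The 20 together made up 9.52 ± 0.541% of the length-scaled RNA. 15 of them are known by a CG number, 11 have under 1000 exonic bases, and 0 lie on the X. 16 of the 20 were among the 20 highest in each library taken alone, and 98 genes were among the 100 highest in each. Dividing by length matters to this order, since without it (CPM, the count scaled to library size alone) 11 of the 20 stayed among the 20 highest.

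The first 50% of the length-scaled RNA came from 467 genes (426 to 491 in single libraries). Within protein-coding genes, 19 genes held 10% of the level, 94 held 25%, 495 held 50% and 3269 held 90%. The testis nevertheless used most of the genome: 9845 of 13919 protein-coding genes (70.7%) reached 1 TPM in every library, 6380 reached 10 TPM, 1844 reached 100 TPM and 102 reached 1000 TPM.

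Gene structure differed along this scale, though not in one direction. The 109 protein-coding genes with a mean of 1000 TPM or more, which held 26.8% of the protein-coding level, had a median of 1111 exonic bases, against 1335 in the 1811 genes at 100 to 1000 TPM, 1971 in the 4715 genes at 10 to 100 TPM and 2152 in the 3535 genes at 1 to 10 TPM. TPM itself divides by these lengths, so part of this order can follow from the scale, and how much was not tested. Genes without an intron made up 33% of the top class and 11.9% of the 10 to 100 TPM class. Where the top class had introns, they were short, the longest intron of a gene having a median of 66 bases against 242 bases at 10 to 100 TPM. Genes known by a CG number alone made up 57.8% of the top class, 36.1% at 10 to 100 TPM and 43.7% of all protein-coding genes. The bottom of the scale resembled the top in these measures. The 964 genes at 0 fragments had a median of 1065 bases, 32.2% without an intron and 54.4% with a CG number alone. The 2785 genes above 0 and under 1 TPM had 1536 bases, 16.8% and 51.6%. Many of the 964 could hardly be counted, however. Of them, 331 have no exonic base outside other genes on their strand, and 108 are histone genes of the repeated cluster (median 529 bases). The part of such genes in the likeness was not tested. The shares are of genes and carry no test.

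Several of the top genes were neighbours. Of the 109 genes at 1000 TPM or more, 25 stood within 10000 bases of another, in 12 groups, 11 of them pairs. The same share was not computed for other protein-coding genes, so the count does not show that abundant genes lie closer together than others. The only trio was *CG18449*, *CG2127* and *CG8701* on 2R (2285 to 5765 TPM). Pairs of genes with a name beyond a CG number were *ocn* and *janB* of the janus cluster (1682 to 7617 TPM), *S-Lap1* and *S-Lap2* (1976 to 5093 TPM), *Mst84Dd* and *Mst84Db* (1417 to 4011 TPM), *Mst98Ca* and *Mst98Cb*, which encode proteins of the sperm tail (1882 to 2429 TPM), *scpr-B* and *scpr-A* (1257 to 2282 TPM), and *tHMG1* and *tHMG2*, which encode HMG-box proteins of spermatid chromatin (1023 to 1188 TPM). *CG12861* and *CG12860* lay side by side at nearly one level, 4181, 4023 and 4387 TPM and 4056, 4212 and 4387 TPM. Neighbouring copies can also share reads that the counting discarded, which lowers such genes, and this was not tested.

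Marker lists of early stages had lower medians than lists of late ones, with exceptions among the regulators and the Y genes. Genes of stem cells and spermatogonia were low: the 12 listed ranged over 0.788 to 46.1 TPM, median 8.95, with *nanos*, a translational repressor needed in germline stem cells, at 5.14, 5.11 and 4.18 TPM and *bam*, which ends the mitotic divisions, at 6.13, 6.32 and 5.95 TPM. *vas*, the germline RNA helicase, measured 12.8 ± 1.1 TPM, and the highest was *bgcn*, the partner of *bam*, at 46.1 ± 4.91 TPM. The mitotic Cdc25 phosphatase *stg* was the only one under 1 TPM (0.788 ± 0.199 TPM), whereas its meiotic counterpart *twe* stood at 110.5, 107 and 112 TPM. The coefficient of variation of *twe* (0.0537% of CPM) was the lowest among protein-coding genes at 100 TPM or more. That is less than the counting error of its 3699, 3345 and 4800 fragments. It is the extreme of many genes and is not read as a trait of *twe*. Somatic hub and cyst cell genes were in the same low range (2.78 to 21.8 TPM, median 8.9), from the cyst cell factor *tj* (2.78 ± 0.475 TPM) to the transcriptional coactivator *eya* (21.8 ± 0.741 TPM), with the hub ligand *upd1* at 13.1 ± 0.582 TPM.

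Regulators of the spermatocyte programme came next. The 7 tMAC genes covered 12.2 to 90.1 TPM, median 40, with *comr* lowest (12.2 ± 0.823 TPM), *aly* at 21.4 ± 2.77 TPM and *vis* highest (90.1 ± 7.49 TPM). Its near-identical neighbour *achi* measured 53.6 ± 3.5 TPM, and how reads were split between these copies is uncertain. The 5 tTAF genes covered 23.3 to 184 TPM, median 34.1: *mia* 23.3 ± 0.391 TPM, *nht* 26.3 ± 1.03 TPM, *can* 34.1 ± 5.33 TPM, *sa* 90.3 ± 7.57 TPM and *Taf12L* 184 ± 15.6 TPM. The tBRD genes had the higher median (142 TPM), *tbrd-1* at 149.5, 139.7 and 137 TPM, *tbrd-2* at 163, 148 and 146 TPM and *tbrd-3* at 67.1, 62.3 and 62.1 TPM. Among the 9 genes of the meiotic cell cycle (median 90.3 TPM), *bol*, the Boule RNA-binding protein that permits translation of *twe*, was highest at 207 ± 12.8 TPM. *polo* kinase stood at 116 ± 2.3 TPM, the Cyclin A inhibitor *rux* at 107 ± 8.12 TPM and *CycB* at 90.3 ± 5.32 TPM.

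Genes of the spermatid had still higher medians. The cup genes, transcribed after meiosis with their RNA at the end of the elongating spermatid, ranged over 66.8 to 2902 TPM, median 224, with *w-cup* at 2919, 2841 and 2947 TPM and *c-cup* at 415 ± 2.21 TPM. Of 9 comet genes, 7 measured 163 TPM (*sunz*) to 870.04 TPM (*boly*), with *soti*, which acts in sperm individualisation, at 612, 615 and 608 TPM. The other comet genes, *cola* and *swif*, had 0 fragments in every library, but each lies wholly within exons of another gene on its strand, where the counting assigned no fragment, so that no level can be read for them. Proteins that replace histones in the sperm nucleus were abundant: *Mst77F* at 3252, 3274 and 3268 TPM, protamine *ProtB* at 1940.1, 1857 and 1972 TPM and its sister gene *ProtA* at 903, 903 and 952 TPM, with the transition protein *Tpl94D* at 669.8 ± 30.9 TPM and *Prtl99C* at 319 ± 8.41 TPM. *ProtB* exceeded *ProtA* in every library. Fragments that map to both copies were left out by the counting, and the part of this in the difference was not tested. The variant histones *His3.3A* (197 ± 22.1 TPM), *His3.3B* (131 ± 8.39 TPM) and *His2Av* (120.5 ± 5.04 TPM) lay below all of these, and the centromeric histone *cid* was at 5.88 ± 0.819 TPM.

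The S-Lap and Mst(3)CGP families had the highest medians of the lists (2698 and 1834 TPM). A mixed list of 13 genes of the tail or with male-specific transcripts had a median of 261 TPM, below the comet and sperm chromatin lists (475 and 869.7 TPM). It includes *loopin-1* (4411 TPM), also counted among the S-Lap genes, and *Mst57Da*, *Mst57Db* and *Mst57Dc* (2.39 to 6.21 TPM). These *Mst57D* genes were nearly missing from replicate 2, as the accessory gland list was, and the place of the mixed list below the comet list depends on them. The 8 sperm leucyl aminopeptidases, the main proteins of the paracrystalline material that fills the mitochondrial derivative of the tail, summed to 22351, 22128 and 24389 TPM, from *S-Lap5* (257 ± 11.7 TPM) to *S-Lap1* (5093 ± 303 TPM). *S-Lap7* (4128 ± 157 TPM) and *S-Lap4* (3385 ± 218 TPM) did not overlap between libraries. Among the high members of the mixed list, *dj* (don juan) stood at 2209, 2118 and 2185 TPM, its relative *djl* at 925 ± 30.2 TPM, *janB* at 1682 ± 30.2 TPM and *janA*, the one janus gene also known from other tissues, at 399 ± 9.28 TPM. A low member was *Mst85C* (4.69 ± 0.543 TPM). *gdl* read 25.2 ± 0.958 TPM, but only 210 of its 1175 exonic bases lie outside other genes on its strand. Fragments over several genes were not counted, so its level is likely understated. The Mst(3)CGP family of cysteine-rich outer tail proteins split by length. *Mst98Ca* (2443, 2290.4 and 2554 TPM) and *Mst98Cb* (1908, 1801 and 1938 TPM), of over 1000 bases, differed little between libraries. The others, of 358 to 623 bases, differed more: *Mst87F* measured 1255, 3008 and 1239.8 TPM and *Mst84Da* 881, 1059.8 and 158 TPM.

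**Figure D2:**
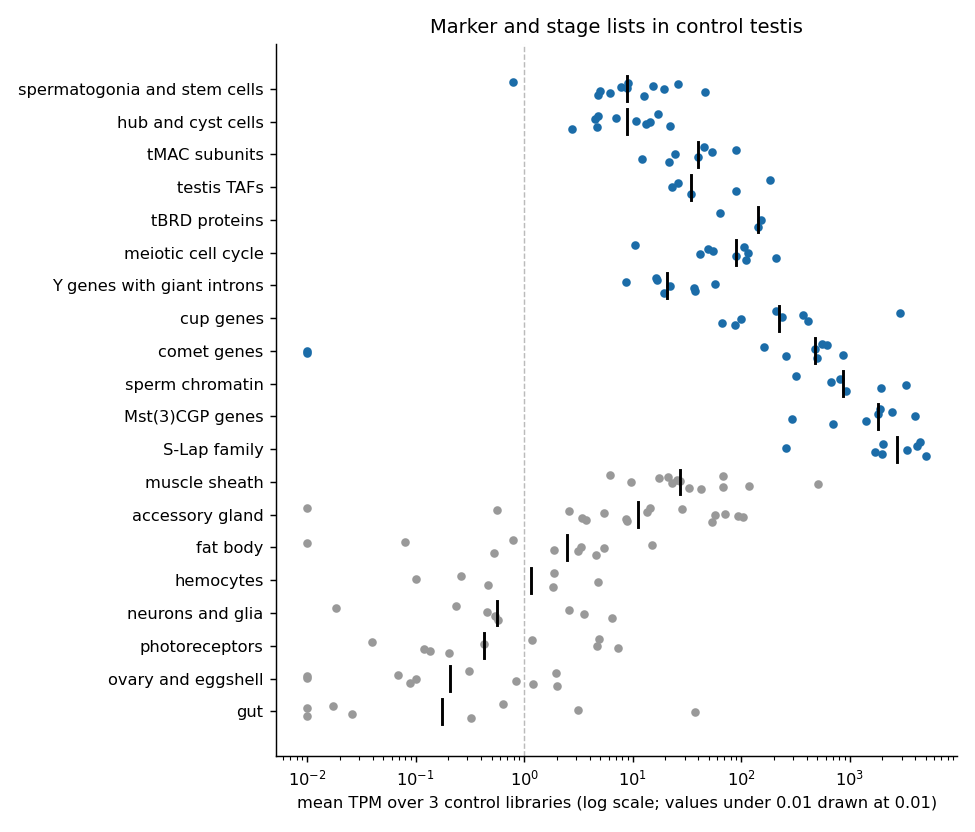
Mean TPM over 3 control libraries of each gene in lists for germline stages and for hub and cyst cells (blue) and in lists for other cell types or organs (grey), on a log axis, with values under 0.01 drawn at 0.01, black bars for list medians and a dashed line at 1 TPM. Medians of the blue lists run from 8.9 TPM for hub and cyst cell genes and 8.95 TPM for spermatogonial genes to 2698 TPM for the S-Lap family. Among the grey lists they lie at 0.205 TPM for ovary and 0.175 TPM for gut.

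Cytoskeletal genes showed which members of a family the testis uses. *alphaTub84B*, the main alpha-tubulin, was at 2207, 2176 and 2372 TPM and *betaTub85D*, the beta-tubulin of meiotic spindles and the axoneme, at 1904, 1846 and 2027 TPM. *alphaTub85E*, a tubulin of somatic support cells and muscle, measured 116 ± 6.01 TPM, and the maternal *alphaTub67C* 0.152 ± 0.0309 TPM. Among actins, the cytoplasmic *Act42A* (629 ± 11.2 TPM) and *Act5C* (589 ± 23.5 TPM) and the muscle-type *Act87E* (514 ± 27 TPM) were of similar level, the testis actin-related gene *Arp53D* was at 309 ± 14.4 TPM, and the flight muscle actin *Act88F* at 0.125 ± 0.074 TPM. The 6 listed dynein heavy chain genes off the Y, which had a median of 27.1 TPM, lay between 1.08 TPM (*Dhc93AB*) and 66 TPM (*Dhc36C*).

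Genes of tissues around the testis were measured too. The testis is wrapped in a muscle sheath, and muscle genes were all detected (6.22 to 514 TPM, median 27.5) and summed to 889, 974 and 1059 TPM. *Act87E* alone gave 512, 488 and 542 TPM of these sums and was lowest in replicate 2. Of the 13 muscle genes 10 were lowest in replicate 1, among them the giant titin-like *bt* (14.7, 23.5 and 24.9 TPM) and troponin T (*up*, 20.4, 30.9 and 31.2 TPM). Accessory gland genes, which encode seminal fluid proteins made outside the testis, were present in replicates 1 and 3 and nearly gone in replicate 2. *Acp36DE*, a seminal protein needed for sperm storage, measured 184, 3.97 and 126 TPM, *Acp26Aa* (ovulin) 87.3, 1.74 and 73.7 TPM and the secreted serpin-type protein *Acp76A* 46.4, 0 and 39.1 TPM. 14 of 16 reached 1 TPM in replicates 1 and 3, and 13 of 16 stood in replicate 2 at under 10% of their level in both other libraries. An exception was *Acp95EF*, at 17.2, 10.9 and 15.1 TPM. The *Mst57D* genes, whose name stands for male-specific transcript, went the same way as the accessory gland list, with *Mst57Da* at 10.5, 0.467 and 7.68 TPM. In the ejaculatory duct and bulb list *EbpIII* (87 ± 3.65 TPM) and *Est-6* (49.6 ± 10.8 TPM) stood out and the other 4 were at 2.38 TPM or less.

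Markers of distant organs were close to the bottom. Photoreceptor genes had a median of 0.426 TPM, with *ninaE*, the main rhodopsin, at 0.201 ± 0.17 TPM, though 4 of 9 reached 1 TPM in every library: *Rh4* (7.24 ± 0.819 TPM), *Rh5* (4.67 ± 0.665 TPM), the phospholipase *norpA* (4.86 ± 0.537 TPM) and the channel *trpl* (1.17 ± 0.107 TPM). Neuronal and glial genes had a median of 0.557 TPM, with *elav* at 0.574 ± 0.136 TPM, glial *repo* at 0.0185 ± 0.0321 TPM and the synaptic *nSyb* highest at 6.45 ± 0.352 TPM. Ovary and eggshell genes had a median of 0.205 TPM, none above 2.01 TPM. Gut genes were at or near 0 apart from the amylases, of which *Amy-p* measured 62.1, 35.7 and 15.1 TPM. The fat body list had a median of 2.5 TPM and 9 of its 10 genes were highest in replicate 3, such as the storage protein receptor *Fbp1* (2.58, 4.56 and 9.09 TPM). The yolk protein gene *Yp1* had 0 fragments in all 3 libraries. Of the Hox genes, *abd-A* stood at 18.4 ± 1.1 TPM and the others at 2.79 TPM or less, *Abd-B* included (1.09 ± 0.0983 TPM).

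Gene families differed as sharply. Of 60 odorant receptor genes 5 reached 1 TPM in every library, of 60 gustatory receptors 7, of 60 ionotropic receptors 8, of 124 cuticle protein genes 25 and of 16 Jonah digestive proteases 0, against 70.7% of all protein-coding genes. The highest chemoreceptors were *Ir85a* (10.3 ± 0.536 TPM), *Gr32a* (9.92 ± 2.41 TPM) and *Or43b* (5.66 ± 0.751 TPM). Odorant-binding proteins, small secreted carriers, were an exception among sensory families: *Obp44a* measured 1136, 1301 and 1238 TPM and *Obp99a* 665, 702 and 718 TPM, while the median of the 51 was 0.671 TPM. The 93 cytoplasmic ribosomal protein genes had a median of 241 TPM and together held 2.35 ± 0.0484% of the level, 77 of them at 100 TPM or more in every library and 0 with a mean of 1000 TPM. The 48 proteasome genes had a median of 129 TPM and held 0.721 ± 0.0257%, and the 23 genes with an Mst symbol held 1.85 ± 0.274%.

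Many housekeeping genes of the fly have a duplicate used mainly in testis or germ line. In 31 of 44 listed pairs the testis-associated copy was higher than the broadly used one in all 3 libraries, in 13 it was lower in all 3, and in 15 it was at least 4 times as high in every library. The copies were listed for a testis association taken from prior knowledge, which was not checked here copy by copy. The count thus describes these pairs and not duplicates in general, and 3 libraries allow no two-sided exact sign-flip p below 0.25 for a pair. Values in the rest of this account of pairs are log2 ratios of TPM, testis-associated over broad copy, as mean ± SD over libraries.

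Pairs of energy metabolism and mitochondria ranged widely, the 8 respiration pairs having a median of 0.97 against 1.49 for proteasome and 1.82 for TFIID pairs. The phosphoglycerate mutase *Pglym87*, a glycolytic enzyme, measured 1016 ± 19 TPM against 40 ± 2.2 TPM for *Pglym78*, a log2 ratio of 4.67 ± 0.07. The cytochrome c oxidase subunit *COX4L* exceeded *COX4* by 4.17 ± 0.11 (1207 ± 51.2 TPM against 67.1 ± 4.69 TPM). Cytochrome c *Cyt-c-d*, the form needed in spermatid individualisation, exceeded *Cyt-c-p* by 3.34 ± 0.11. The succinate dehydrogenase subunit *SdhBL* (3.12 ± 0.13), the import pore *tomboy40* (2.99 ± 0.09), the outer membrane channel *Porin2* (2.97 ± 0.05) and the ADP/ATP carrier *Ant2* (2.27 ± 0.07) followed, and *fzo*, which fuses mitochondria in spermatids, exceeded *Marf* by 1.68 ± 0.01. Not every respiratory duplicate led: *SdhAL* stood below *SdhA* (-0.34 ± 0.09), *ATPsynbetaL* below *ATPsynbeta* (-1.05 ± 0.11) and *COX6AL2* below *levy* (-0.86 ± 0.10). The last sign depends on length, *COX6AL2* having 3130 annotated bases against 593, and was 1.54 without length scaling.

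Proteasome and chaperone pairs also leaned to the testis-associated copy. It led in 8 of 9 proteasome pairs, most for the lid subunit *Rpn12R* (2.89 ± 0.13) and the ATPase *Rpt3R* (2.58 ± 0.17), with *Prosalpha4T1* at 0.14 ± 0.05, a sign that turned without length scaling, and *Prosalpha3T* below *Prosalpha3* (-1.86 ± 0.09). The mitochondrial chaperonins *Hsp60C* (1644 ± 114 TPM) and *Hsp60B* (925 ± 67.6 TPM) exceeded *Hsp60A* (219 ± 7.07 TPM) by 2.91 ± 0.08 and 2.08 ± 0.08. The translation factor *eIF4G2*, required for meiosis in males, exceeded *eIF4G1* by 2.84 ± 0.16, and *eIF4E3* exceeded *eIF4E1* by 1.09 ± 0.03, though not without length scaling. *betaTub85D* exceeded *betaTub56D* by 2.93 ± 0.06.

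Ribosomal proteins went the other way. The testis-associated copy was the lower in 7 of 10 pairs, with a median log2 ratio of -0.66. *RpS28a* was nearly silent at 1.38 ± 0.752 TPM against 211 ± 5.22 TPM for *RpS28b*, and *RpS15Ab* (-2.20 ± 0.14), *RpL24-like* (-1.43 ± 0.13) and *RpS5b* (-0.94 ± 0.10) lay below their partners. *RpS14a* (1.64 ± 0.05), *RpL22-like* (1.20 ± 0.05) and *RpL10Aa* (0.24 ± 0.01) lay above, the last not without length scaling. Whether *RpS14a* and *RpL24-like* are testis-associated copies was not checked, and the count of 7 in 10 depends on the list. *RpS19b* against *RpS19a* (-0.17 ± 0.04) had a sign that depended on the length used. Of the TFIID pairs, *Taf12L* exceeded *Taf12* by 4.10 ± 0.09, *can* exceeded *Taf5* by 2.80 ± 0.19 and *sa* exceeded *Taf8* by 1.82 ± 0.14, while *mia* exceeded *Taf6* by 0.25 ± 0.10 and *nht* was below *Taf4* (-0.72 ± 0.03). The splicing factor copy *LS2*, a testis-enriched relative of the large U2AF subunit, lay below *U2af50* (-1.41 ± 0.13).

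**Figure D3:**
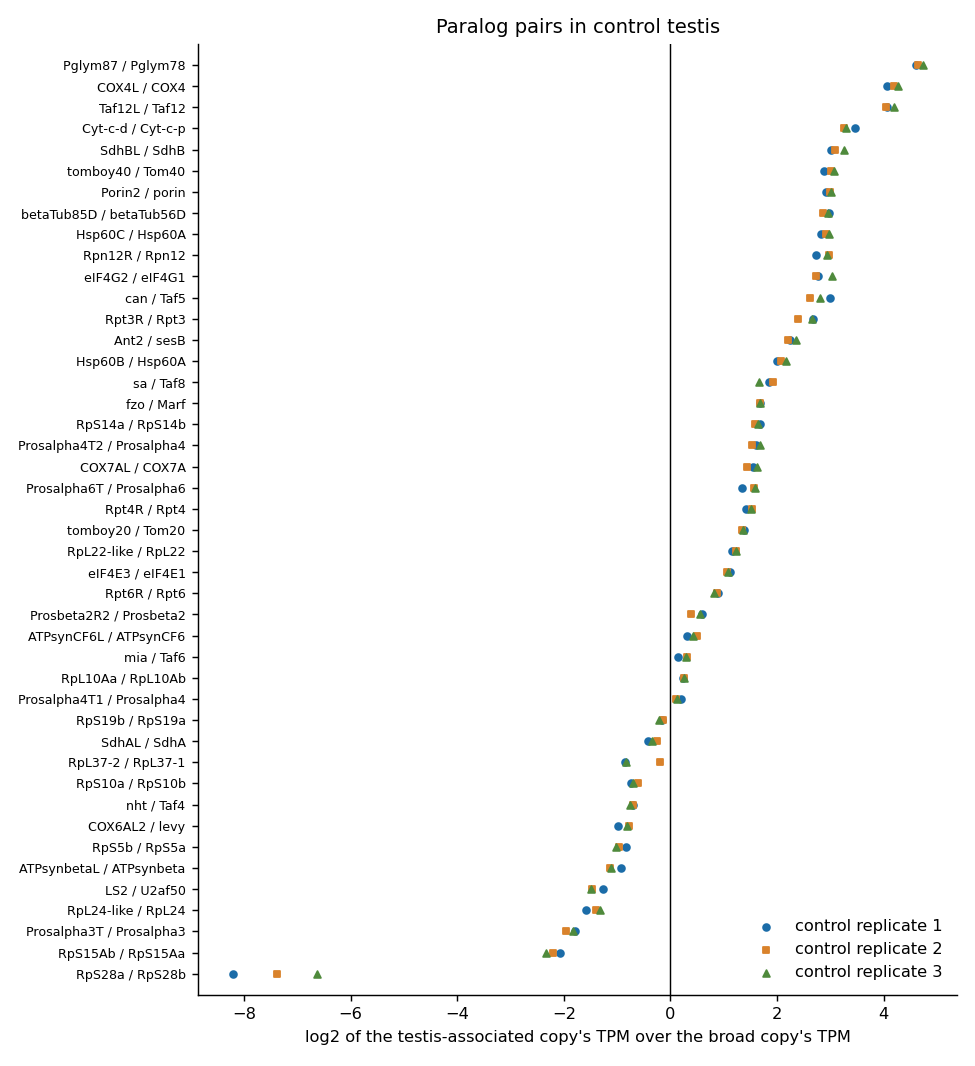
Log2 ratio of TPM, testis-associated over broadly used copy, for 44 gene pairs, with 1 symbol for each control library. Ratios run from -7.41 for *RpS28a* to 4.67 for *Pglym87*, and in every pair the 3 libraries lie on the same side of 0.

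Chromosomes did not contribute in proportion to their genes. The X carries 15.6% of protein-coding genes and gave 8.66, 8.33 and 8.46% of the protein-coding level in replicates 1, 2 and 3. Arm 3R, with 24.5% of the genes, gave 28, 28.5 and 28%, and 2L, with 19.1%, gave 23.1 to 23.5%. Arm 2R gave 21.5 to 21.9% from 20.4% of the genes and 3L 17.8 to 18.3% from 19.6%. Counting all RNA classes, the X share was 10.3, 11.5 and 9.63%, and the high value of replicate 2 went with the ribosomal RNA pseudogenes on the X: without pseudogenes it was 9.12, 8.81 and 8.91%.

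The X differed more in its abundant genes than in how many genes were on. 72.2% of its protein-coding genes reached 1 TPM in every library, against 69.6 to 70.7% on the 4 large autosomal arms. Its median protein-coding gene stood at 7.61, 7.2 and 7.29 TPM, below the autosomal arms, where medians over arms and libraries ran from 8.59 to 10.3 TPM without overlap. The gene at the 90% quantile was at 88.2 to 94.4 TPM on the X and at 148 to 187 TPM on the autosomal arms. Only 9.35% of X genes had a mean of 100 TPM or more, against 14.2 to 15.4%. At 1000 TPM the X had 5 of 2172 genes, 2L 28 of 2655, 2R 22 of 2843, 3L 18 of 2734 and 3R 36 of 3412. Toward the low end the order turned, the 25% quantile being 0.902 TPM on the X and 0.68 to 0.793 TPM on the autosomal arms. The highest X genes were *CG1394* (1470.3, 1378 and 1434 TPM), *CG15198* (1189 ± 51.6 TPM) and *CG1324* (1106 ± 30.9 TPM).

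**Figure D4:**
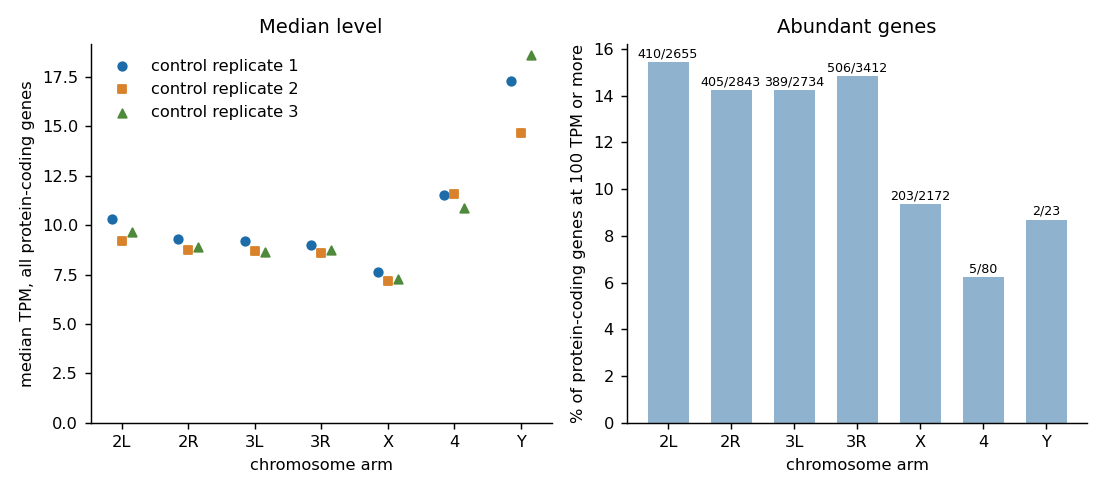
Left, median TPM of all protein-coding genes of each chromosome arm, 1 symbol per control library. Right, percent of the arm's protein-coding genes with a mean of 100 TPM or more, with gene numbers above the bars. The X has the lowest median in every library, and 203 of 2172 X genes pass 100 TPM against 410 of 2655 on 2L.

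The small chromosome 4 had most of its genes detected and few abundant ones. Of its 80 protein-coding genes 65 (81.2%) reached 1 TPM in every library and 0 had 0 fragments, its median was 11.3 ± 0.397 TPM, and 6.25% reached 100 TPM. Its highest were the ribosomal protein gene *RpS3A* (301, 299.8 and 295 TPM), the ATP synthase subunit *ATPsynbeta* (127 ± 2.56 TPM) and the small GTPase *Arf4* (127 ± 9.7 TPM). Components of the dosage compensation complex, which raises X transcription in male somatic cells, were present: its RNAs *lncRNA:roX1* and *lncRNA:roX2* stood at 45.6, 40.9 and 39.5 TPM and 18.3, 24.4 and 19.3 TPM, the helicase *mle* at 17.6 ± 1.05 TPM, *msl-3* at 22.6 ± 1.95 TPM, *mof* at 9.27 ± 1.09 TPM, and *msl-2*, the male-limited subunit, at 6.88, 6.28 and 6.46 TPM.

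The Y chromosome gave 0.0857 ± 0.00284% of the level. Of its 23 protein-coding genes 17 reached 1 TPM in every library, with a median of 16.9 ± 2.0 TPM. The 8 genes listed for giant introns covered 8.58 to 57.6 TPM, median 20.9. They did not lead the chromosome: *CCY* was highest among them at 57.6 ± 5.38 TPM, the dynein heavy chain genes *kl-3* and *kl-5* did not differ beyond their library ranges (*kl-5* 36.9 ± 2.56 TPM), *kl-2* lay below both (19.5 ± 0.895 TPM), and *PRY* was lowest at 8.58 ± 0.85 TPM. The study found that control read depth often fell past a gigantic intron, so a whole-gene level averages uneven coverage. It left *PRY* and *WDY* out of its coverage plots for low expression, annotation errors or both. Above the giant-intron genes were *CG45765* at 180.01, 186 and 188 TPM, *Mst77Y-7*, one of the Y copies of *Mst77F*, at 129, 121 and 131 TPM, and *ARY* at 89.2, 86.9 and 90.2 TPM. *Mst77Y-7* thus stood far under its autosomal parent, and the other *Mst77Y* rows ran from 0 to 16.1 TPM. Levels of the separate *Mst77Y* copies are uncertain, since the counting left out fragments that map to several places. *Pp1-Y1* had 0 fragments in every library, and the cause was not tested. The protein phosphatase *Pp1-Y2* stood at 56.5 ± 4.54 TPM and *FDY*, a recent arrival on the Y, at 36.6 ± 3.54 TPM.

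Noncoding RNA was a small share of these ribosomal RNA-depleted libraries. Nuclear protein-coding genes held 91 ± 1.32% of the length-scaled level, long noncoding RNAs (lncRNAs) 3.0 ± 0.0584%, the mitochondrial genome 3.26 ± 0.23% and antisense RNAs 0.437 ± 0.00785%. Pseudogenes held 1.45, 3.1 and 0.96%, of which ribosomal RNA pseudogenes were 1.26, 2.91 and 0.775%, among them *2SrRNA-Psi:CR40677* and *2SrRNA-Psi:CR45858*, whose levels of 8875, 13452 and 5075 TPM and 3554, 4932 and 2465 TPM are inflated by division by 30 bases and are not comparable with other genes. 899 of 1936 lncRNA genes (46.4%) and 250 of 502 antisense genes (49.8%) reached 1 TPM in every library. Transfer RNA and small nucleolar RNA genes, shorter than the fragments selected, were mostly at 0 (228 of 290 and 139 of 269), which says nothing of their abundance. The RNA of *snRNA:7SKa*, an inhibitor of transcription elongation, was an exception at 2184, 2956 and 2302 TPM.

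A few lncRNAs were as abundant as the top mRNAs. *lncRNA:CR9284*, on 2R, measured 3974, 3977 and 4307 TPM and ranked 18 of all genes. *lncRNA:CR32652*, *lncRNA:CR32658* and *lncRNA:CR32661*, all on the X, measured 2329, 2238 and 2297 TPM, 1734, 1768 and 1676 TPM and 1451, 1463 and 1416 TPM. These 4 were the only lncRNAs at 1000 TPM or more. The X stood out among lncRNAs in the opposite sense to its mRNAs at the top of the scale: it held 12.3% of lncRNA genes and 33.4% of the lncRNA level, and 10 of the 26 lncRNAs at 100 TPM or more in every library were X-linked. Fewer of its lncRNA genes were detected, however, 33.2% against 42.9% on 2R to 53.2% on 3R. Other high X-linked lncRNAs were *lncRNA:CR32690* (853 ± 17.9 TPM), *lncRNA:CR43279* (757 ± 81.6 TPM) and *lncRNA:CR43835* (629.96 ± 48.7 TPM). All of these span at most 889 exonic bases. The highest antisense RNA, *asRNA:CR44370* on 2R, was at 346, 319 and 317 TPM over 5545 bases.

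The mitochondrial genome supplied the single most abundant RNA of the table, the small ribosomal RNA *mt:srRNA*, at 15876, 15950.4 and 15809 TPM. The large ribosomal RNA *mt:lrRNA* had 9, 390 and 6 fragments and was again highest in replicate 2. The part of ribosomal RNA depletion in this was not tested. Without *mt:srRNA* the mitochondrial genome held 1.82, 1.78 and 1.41% of the level. Among its mRNAs, cytochrome oxidase subunits *mt:CoI* (5351, 5456 and 3733 TPM) and *mt:CoIII* (4817, 4757 and 3119 TPM) and cytochrome b (*mt:Cyt-b*, 2148, 2126 and 1309 TPM) were lower in replicate 3, while NADH dehydrogenase *mt:ND2* (143, 92.7 and 218 TPM) and *mt:ND4L* (116, 86.3 and 318 TPM) were higher there. *mt:ND4* measured 538, 500.2 and 529 TPM and *mt:ND5* 484 ± 33.2 TPM.

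A gene with no fragment in any library was not always a gene that could have had one. 1895 of 17575 genes, 964 of them protein-coding (6.93% of protein-coding genes), had 0 fragments in all 3 libraries, where 3 fragments, the limit a count of 0 allows, correspond to 0.1 to 0.143 CPM. These limits cover counting error only. 331 of the 964 have no exonic base that is not also in another gene on the same strand, and every protein-coding gene of that kind was at 0 (331 of 331). The longest genes at 0 were all of this kind: *CG15465* (19353 bases), *CG46320* (17139) and *CG46244* (8637). So, too, were *stnA* and *stnB*, which share one dicistronic transcript, and *cup*, a translational repressor known from the ovary (these were named after their values were seen). A further 43 have under 200 bases of their own, 108 are histone genes of the repeated cluster and 6 are Stellate copies, which lie in repeats where reads map to many places.

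The remaining 476 silent genes were short, with a median of 847 exonic bases against 1739 for all protein-coding genes. They still include members of repeated families, such as *Mst77Y-9*, whose fragments the counting can discard, so not all need be unexpressed. Among all 964 genes at 0, which are 6.93% of protein-coding genes, were 30 of 124 cuticle protein genes, 12 of 60 gustatory receptors, 9 of 60 odorant receptors, 8 of 51 odorant-binding proteins and 7 of 16 Jonah proteases. Some of these receptors and binding proteins are among the genes with few or no bases of their own. Long genes with bases of their own and yet no fragment included *dan*, a transcription factor of the antenna (3968 bases), *nerfin-1*, a zinc finger factor of young neurons (3208 bases), and *Np*, a serine protease (4195 bases), picked after the list was seen.

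Most genes varied little between libraries. Over 11953 genes with at least 10 fragments in each library, the median coefficient of variation of CPM was 6.87%, or 5.04% once counting error was taken off. It was 6.24% for genes of 2000 bases or more and 20.6% for genes under 400 bases. The lanes of one library differed by little more than counting error, with a chi-square per degree of freedom of 1.31 to 1.36. Between libraries it was 9.27 for replicates 1 and 3, 28.3 for 1 and 2, and 37.1 for 2 and 3, so that none is a second copy of another.

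The genes of 10 TPM or more with the largest variation were of a few kinds, and all but one of the 10 were set by replicate 2. First were ribosomal RNA pseudogenes on the X, *28SrRNA-Psi:CR45859* at 14.8, 2693 and 16.2 TPM, *18SrRNA-Psi:CR41602* at 107, 1974 and 107 TPM, and *28SrRNA-Psi:CR45855*, *28SrRNA-Psi:CR41609*, *28SrRNA-Psi:CR40741* and *28SrRNA-Psi:CR45860*, all high in replicate 2. The mitochondrial *mt:ND6* came next and was high in replicate 3 (8.66, 6.8 and 36.5 TPM). The others were nearly missing from replicate 2, as the accessory gland list was: *CG17097* measured 140.3, 0.0224 and 86.5 TPM, *CG9029* 38, 0 and 23.9 TPM and *BG642163* 37.1, 0 and 25.6 TPM. Among genes with at least 10 fragments in every library, *CG18284* (67.3, 4.0 and 36.4 TPM), *Acp36DE*, *BG642312* (209, 4.22 and 160.1 TPM) and the serpin *Spn28F* (85.9, 1.94 and 65.5 TPM) had the same pattern. Of the abundant short genes *CG31226*, named after its values were seen, measured 2053, 4956 and 1306 TPM over 389 bases.

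**Figure D5:**
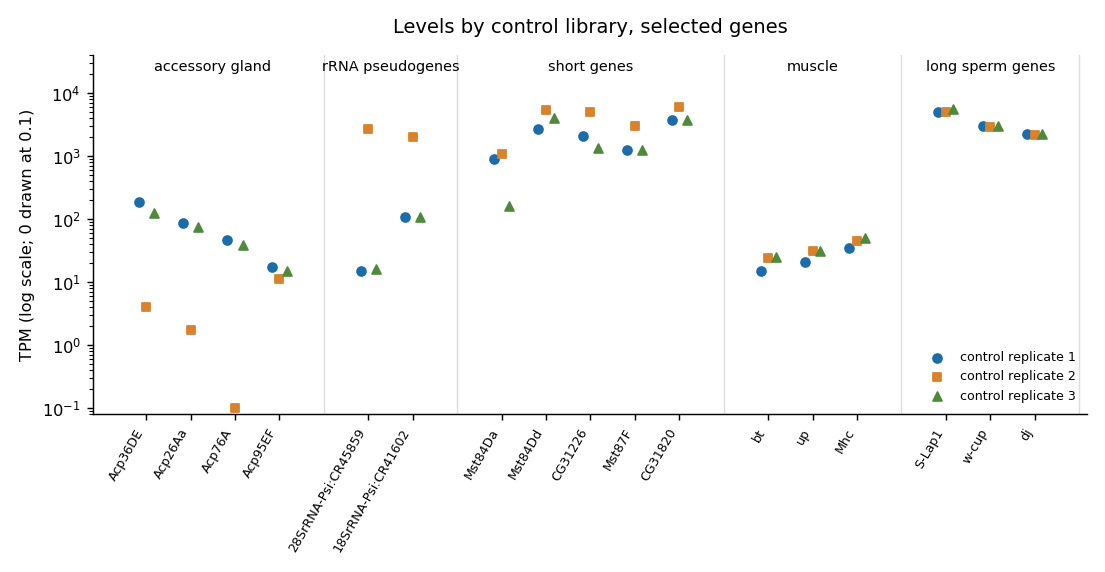
TPM of selected genes on a log axis (0 drawn at 0.1), 1 symbol per control library, chosen to show each pattern. Replicate 2 is low for accessory gland genes such as *Acp36DE* (3.97 TPM) and high for *28SrRNA-Psi:CR45859* (2693 TPM), short genes scatter, and *S-Lap1*, *w-cup* and *dj* nearly coincide.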

How the data were processed

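Total RNA (500 ng) of control testes was depleted of ribosomal RNA, built into strand-specific libraries selected for long inserts (so that short genes can be understated, which was not tested) and sequenced as 250-base paired reads. The authors aligned reads with STAR 2.7.1a to genome build dm6 and deposited raw counts, whole numbers of fragments over exons made by featureCounts 1.6.2 on FlyBase annotation r6.37, reverse strand, without fragments on several places or several genes. The deposited exonic Length of each gene was used as given. Here the 2 lanes were summed per library, and TPM and CPM (counts scaled to 1000000 per library) were computed. All columns of the table matched labelled libraries, and only the control columns were used. Gene classes came from Ensembl 115, which held 17512 of 17575 identifiers. Exonic bases shared with another gene on the same strand were found from the exon coordinates in the table. Depth was 20908187 to 30002574 fragments per library.

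With a single group no test between groups exists. Values are means ± SD or ranges over 3 libraries, and genes were called ordered only where library ranges did not overlap. The named genes were the 20 highest protein-coding and 10 highest other genes, the 3 highest of each arm, the 10 most variable of 10 TPM or more, the 3 longest at 0 fragments, and members of fixed lists. Of 247 list entries 243 were found. The members and lists were chosen with earlier results of these data known. Alternatives changed the length used, the lanes, the libraries, the gene set, the thresholds and the scaling (edgeR 4.0.16 TMM, DESeq2 1.42.0 size factors). Scripts (Python 3.11.15, R 4.3.3) were tested on simulated data.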

Additional observations from a re-analysis of the deposited data

How the results depend on the processing

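No paired analysis was possible because there is 1 group and no test. Leaving out each library in turn gave 19 to 19 of the 20 highest protein-coding genes, a protein-coding share of 90.4 to 91.7%, 453 to 483 genes for 50% of the RNA, an X share of 9.95 to 10.9%, an X median of 7.24 to 7.45 TPM, 1093 to 1132 silent and 9908 to 10024 detected protein-coding genes, 31 to 31 pairs led by the testis-associated copy, and a median coefficient of variation of 5.39 to 6.16%. With either lane alone the median coefficient of variation was 7.56 and 7.77%, against 6.87% with both, the shares and the X median stayed within their SD over libraries, and the counts within 1.5 times. Without length scaling 11 of the 20 remained. The X share was 8.48% over protein-coding genes and 8.95% without pseudogenes (added after seeing the data), and the X median was 14 TPM over detected genes. The protein-coding share was 95.5% of fragments, 94.1% without mitochondrial and rRNA genes and 92.7% without pseudogenes (also added then). Silent protein-coding genes numbered 1581 with up to 3 fragments allowed and 3484 below 1 TPM in every library. Without genes under 200 bases of their own and histone genes they numbered 482 (added after seeing the data). The 482 still include the 6 Stellate copies and other repeated genes. Detected genes numbered 6380 at 10 TPM. With 250 bases taken off each length *RpS19b* over *RpS19a* turned to 0.19 (log2). Without length scaling *COX6AL2* over *levy* turned to 1.54, *eIF4E3* over *eIF4E1* to -0.013, *Prosalpha4T1* over *Prosalpha4* to -0.26 and *RpL10Aa* over *RpL10Ab* to -0.0473. Of 2623 recomputed levels of 301 named genes, 423 moved by more than the spread between libraries. Level differences of genes under 500 bases can be affected by insert size, and those of genes with near-identical copies by discarded fragments. Neither was tested.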

Other observations

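The cytochrome P450 family, whose members detoxify or make hormones, had 43 of 84 genes detected (51.2%), below the 70.7% of all protein-coding genes. *Cyp6d5* was highest at 201, 157 and 176 TPM in replicates 1, 2 and 3. *Twdlalpha*, a gene of the Tweedle cuticle family, measured 94.2, 84 and 95.8 TPM although 30 of 124 cuticle genes had 0 fragments. Of 18 dynein genes with symbols of heavy, intermediate and light intermediate chains 17 were detected, *Dic2* highest at 490.2, 469.9 and 513 TPM. Stellate and Suppressor of Stellate copies had 1 of 40 detected, against 63.6% of all genes, and fragments that map to several of these repeats were not counted.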
